A study of Homo sapiens with 4 samples.

Results

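The Notch receptors and ligands were followed through hematopoietic differentiation of the human iPSC line BC1 (induced pluripotent stem cells). The 9 genes were chosen by name, as the rows of the deposited table whose symbol is NOTCH1, NOTCH2, NOTCH3, NOTCH4, DLL1, DLL3, DLL4, JAG1 or JAG2, and each was on 1 row of a table of 58274 gene identifiers. They comprise 4 receptors and 5 ligands. Of the 9, 8 reached 1 FPKM (fragments for every 1000 bases of transcript and every 1000000 mapped) in at least 1 library, and DLL1 did not. Undifferentiated BC1 cells were set beside cells sorted by surface protein: mesoderm cells with APLNR on day 2, hemogenic endothelial progenitors with CD31 and CD34 on day 5, and hematopoietic progenitors with CD43 on day 8. Activin A and BMP4 were given for the first 2 days, and VEGF and bFGF afterwards. Each population had 1 library, all 4 came from the same cell line, and the day of collection differs with the population, so day and cell type cannot be told apart. No test of differences between populations was possible, and no p-value is given.

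Notch receptors are surface proteins that are cut when a ligand on a neighboring cell pulls on them. The freed intracellular part enters the nucleus, joins the DNA-binding protein RBPJ and turns on targets such as the HES and HEY repressors. In the embryo the pathway is known for sorting endothelial cells into arterial and venous fates and, with NOTCH1, for the emergence of definitive blood from arterial endothelium. DLL1, DLL4, JAG1 and JAG2 activate receptors on adjacent cells, whereas DLL3 does not and is known as an inhibitor acting within its own cell.

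Depths read from the steps between low values were 19660000 mapped fragments in BC1 cells, 21460000 in APLNR+ cells, 23580000 in CD31+CD34+ cells and 21530000 in CD43+ cells. APLNR was at 1073 FPKM in the library sorted for it, against 0.782 in BC1 cells. PECAM1, the gene of CD31, and CD34 were at 93.1 and 102 FPKM in the CD31+CD34+ library, against 0.460 and 0.645 in the APLNR+ library. The CD43+ library also held both, with PECAM1 at 126 and CD34 at 42.6 FPKM. SPN, the gene of CD43, was at 92.4 FPKM in the CD43+ library, against 11.7 in the CD31+CD34+ library. The 5 hematopoietic markers summed to 146 FPKM in CD31+CD34+ cells and 1402 FPKM in CD43+ cells. In CD31+CD34+ cells, RUNX1 was at 60.1, ITGA2B at 60.9 and GATA1 at 13.4 FPKM. In CD43+ cells, these genes were at 137, 982 and 189.8 FPKM, so ITGA2B made up most of the sum there. The 4 pluripotency markers summed to 2463 FPKM in BC1 cells, 834 in APLNR+ cells and 2.46 in CD31+CD34+ cells. PTPRC, the gene of the blood cell protein CD45, was at most at 0.0349 FPKM. Folds below carry an exact Clopper-Pearson 95% interval from the approximate number of fragments, which covers counting error only, since no culture was repeated. Changes are differences in log2(FPKM + 1), on which a gene rose or fell when it moved by at least 1. For genes near or below 1 FPKM, the scale shrinks the fold.

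Promoters of the 4 members that rose from APLNR+ to CD31+CD34+ cells are printed because these genes moved together. Each is the 250 bases before the RefSeq start on GRCh38.p14, written 5′ to 3′ on the strand of the gene. Capitals mark matches to GGAAGT, a sequence bound by ETS factors, and to ACAATG, bound by SOX factors, read on both strands.
NOTCH4, chr6:32224068-32224317, minus strand: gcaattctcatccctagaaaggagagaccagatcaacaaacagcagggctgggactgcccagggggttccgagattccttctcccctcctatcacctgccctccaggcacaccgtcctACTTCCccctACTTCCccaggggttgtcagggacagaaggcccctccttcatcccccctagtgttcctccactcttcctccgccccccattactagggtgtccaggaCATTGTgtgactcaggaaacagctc
DLL4, chr15:40929090-40929339, plus strand: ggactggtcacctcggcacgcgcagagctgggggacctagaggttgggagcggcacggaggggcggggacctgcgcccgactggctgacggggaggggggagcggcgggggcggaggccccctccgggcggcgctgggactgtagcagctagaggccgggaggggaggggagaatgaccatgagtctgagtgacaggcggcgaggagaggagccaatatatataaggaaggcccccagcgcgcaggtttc
NOTCH1, chr9:136546049-136546298, minus strand: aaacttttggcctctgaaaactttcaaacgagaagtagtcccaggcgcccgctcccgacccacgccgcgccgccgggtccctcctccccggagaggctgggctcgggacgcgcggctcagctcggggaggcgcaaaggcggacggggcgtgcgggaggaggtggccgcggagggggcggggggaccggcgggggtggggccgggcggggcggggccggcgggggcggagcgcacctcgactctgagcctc
JAG2, chr14:105168777-105169026, minus strand: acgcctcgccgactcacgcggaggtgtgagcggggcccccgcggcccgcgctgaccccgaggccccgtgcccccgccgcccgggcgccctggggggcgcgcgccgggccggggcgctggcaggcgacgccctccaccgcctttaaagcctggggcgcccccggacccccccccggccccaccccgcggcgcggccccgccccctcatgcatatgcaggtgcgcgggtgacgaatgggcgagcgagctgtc

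The promoter of NOTCH4 differed in composition from the other promoters of the family. It held 3 CpG dinucleotides and 58.0% G and C, against a median of 11 CpG dinucleotides and 58.0% G and C over 35116 promoters. The other 6 members with a promoter in the table, which lacks DLL1 and DLL3, held between 17 and 38 CpG dinucleotides and between 68.4% and 81.6% G and C. NOTCH4 had 2 matches to GGAAGT, 132 and 122 bases before the start, and 1 match to ACAATG, 25 bases before it. In all promoters, 19.5% held GGAAGT and 9.29% held ACAATG. None of the 7 promoters held TGGGAA, the core of the RBPJ site, on either strand, and 20.8% of all promoters did. None held the GATA factor site GATAAG on either strand, and 5.65% of all promoters did. The start used for NOTCH1 lies 262 bases from its start in GENCODE 29, and the starts of the other 6 lie within 48 bases.

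The receptors were dominated by NOTCH1 and NOTCH3. NOTCH1 (chromosome 9, 136494444 to 136545862), the receptor required for definitive blood stem cells, was at 22.7 FPKM in BC1 cells, 13.8 in APLNR+ cells, 128 in CD31+CD34+ cells and 24.4 in CD43+ cells. The library of CD31+CD34+ cells stood far above the other 3. Its level there was 9.27-fold (8.91 to 9.65) that in APLNR+ cells and 5.25-fold (5.09 to 5.42) that in CD43+ cells. BC1 and CD43+ cells differed by 1.07-fold (1.03 to 1.12), and scaling the libraries to reference genes turned that small difference around.

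NOTCH3 (chromosome 19, 15159038 to 15200981), known as the receptor of vascular smooth muscle and pericytes, had another order. It was at 36.4 FPKM in BC1 cells, 29.1 in APLNR+ cells, 41.0 in CD31+CD34+ cells and 8.11 in CD43+ cells. The first 3 libraries lay within 1.41-fold (1.36 to 1.46), and the CD43+ library was 5.06-fold (4.78 to 5.35) below the CD31+CD34+ library. Of the 6 genes listed as mural cell markers, RGS5 was at 393 FPKM and ACTA2 at 48.3 FPKM in CD31+CD34+ cells, PDGFRB at 6.69 and CSPG4 at 1.37 FPKM, and DES and MYH11 at 0.968 and 0.0221 FPKM. The summed level of these markers was between 24.1 and 452 FPKM, highest in CD31+CD34+ and lowest in APLNR+ cells. RGS5, at 41.4, 12.3, 393 and 3.58 FPKM in the order of differentiation, made up most of the highest sum. PDGFRB was at 5.67, 5.50, 6.69 and 2.56 FPKM and CSPG4 at 1.47, 1.83, 1.37 and 0.422 FPKM, so the markers did not peak together. Their part in the level of NOTCH3 was not tested. In these bulk libraries, fewer cells of a type and less RNA per cell cannot be told apart.

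NOTCH2 (chromosome 1, 119911553 to 120069626) moved least of the 9 relative to its own level. It was at 6.90 FPKM in BC1 cells, 9.34 in APLNR+ cells, 5.56 in CD31+CD34+ cells and 5.17 in CD43+ cells. The highest and lowest libraries lay within 1.81-fold (1.68 to 1.94), and CD31+CD34+ and CD43+ cells did not differ beyond counting error (1.07-fold, 0.995 to 1.16). NOTCH2 shares nearly identical sequence with NOTCH2NL, which was at 0.856, 3.79, 2.65 and 3.30 FPKM in the same order, so the division of fragments between them is uncertain.

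NOTCH4 (chromosome 6, 32194843 to 32224067), a receptor largely confined to endothelium, was at 0.243 FPKM in BC1 cells, 0.0747 in APLNR+ cells, 3.42 in CD31+CD34+ cells and 0.258 in CD43+ cells. It was thus above 1 FPKM in CD31+CD34+ cells alone. About 10 fragments stood behind the APLNR+ value and 522 behind the CD31+CD34+ value, a 45.8-fold rise (25.7 to 99.9). The fall to CD43+ cells was 13.3-fold (9.44 to 19.1), and CD43+ and BC1 cells did not differ beyond counting error (1.06-fold, 0.640 to 1.78). NOTCH4 shares 98 exonic bases with GPSM3 on the same strand. GPSM3 was at 18.6 FPKM in the library where NOTCH4 was highest and 20.7 FPKM in the CD43+ library.

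**Figure D1:**
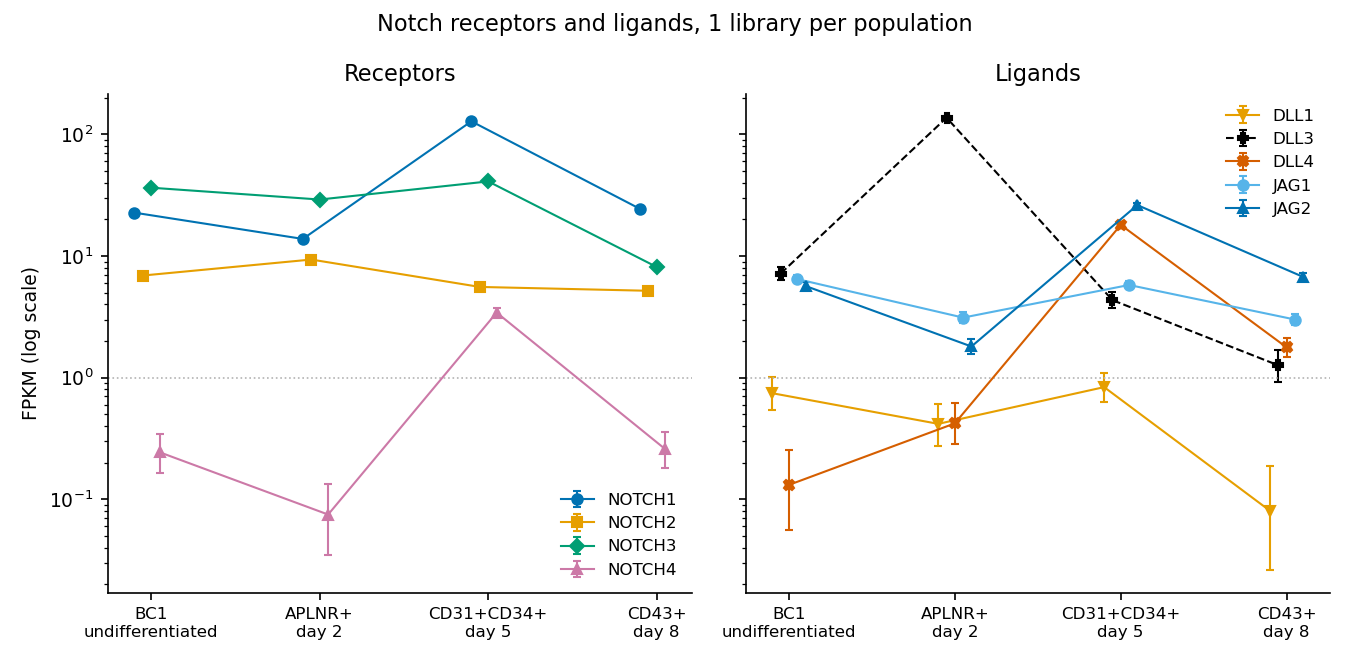
FPKM of each Notch receptor (left) and ligand (right) in the 4 populations, on a log axis, with 1 library per point and error bars that are exact Poisson 95% intervals for counting error only. NOTCH1, NOTCH4, DLL4 and JAG2 peak in CD31+CD34+ cells, at 128, 3.42, 18.0 and 26.2 FPKM, while DLL3 (dashed) peaks in APLNR+ cells at 137 FPKM, and the dotted line marks 1 FPKM.

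Among the activating ligands, DLL4 and JAG2 carried the change. DLL4 (chromosome 15, 40929340 to 40939072), the ligand of arterial and tip cells, was at 0.131 FPKM in BC1 cells, 0.420 in APLNR+ cells, 18.0 in CD31+CD34+ cells and 1.77 in CD43+ cells. The CD31+CD34+ library was the only one above 2 FPKM. About 8 and 29 fragments stood behind the BC1 and APLNR+ values. The rise from APLNR+ to CD31+CD34+ cells was 42.8-fold (29.2 to 63.2), and the fall to CD43+ cells was 10.2-fold (8.43 to 12.4). CD43+ cells remained 13.6-fold (6.78 to 32.7) above BC1.

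JAG2 (chromosome 14, 105140981 to 105168824) was at 5.66 FPKM in BC1 cells, 1.80 in APLNR+ cells, 26.2 in CD31+CD34+ cells and 6.72 in CD43+ cells. APLNR+ cells were lowest and CD31+CD34+ cells highest. The gene fell 3.14-fold (2.68 to 3.68) at the first step, rose 14.6-fold (12.7 to 16.8) at the second and fell 3.91-fold (3.62 to 4.23) at the third. JAG2 shares 469 exonic bases with AL512356.1 on the same strand, whose value did not exceed 0.000777 FPKM.

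JAG1 (chromosome 20, 10637684 to 10674107), the ligand best known from vascular and biliary development, stayed low. It was at 6.45 FPKM in BC1 cells, 3.11 in APLNR+ cells, 5.77 in CD31+CD34+ cells and 3.0 in CD43+ cells. The libraries alternated between a higher and a lower level, with a range of 2.15-fold (1.89 to 2.44). An antisense gene that shares 79 exonic bases with it, AL050403.2, was listed at 0. BC1 was 1.12-fold (1.01 to 1.24) above CD31+CD34+ cells, and APLNR+ and CD43+ cells did not differ beyond counting error (1.04-fold, 0.895 to 1.20). In BC1, JAG1 and JAG2 were at similar levels, whereas in CD31+CD34+ cells JAG2 stood at 26.2 FPKM against 5.77 FPKM for JAG1.

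DLL1 (chromosome 6, 170282206 to 170306565), a ligand of the somites, was at 0.743 FPKM in BC1 cells, 0.416 in APLNR+ cells, 0.834 in CD31+CD34+ cells and 0.0801 in CD43+ cells. About 43, 26, 57 and 5 fragments stood behind these values. CD31+CD34+ and BC1 cells did not differ beyond counting error (1.12-fold, 0.736 to 1.69). CD43+ cells were 10.4-fold (4.21 to 33.3) below CD31+CD34+ cells, a difference that rests on very few fragments, and with the median transcript length in place of the principal one only a lower bound of 9.42-fold could be given.

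The inhibitory ligand DLL3 (chromosome 19, 39498895 to 39508481) went its own way. It was at 7.17 FPKM in BC1 cells, 137 in APLNR+ cells, 4.33 in CD31+CD34+ cells and 1.26 in CD43+ cells. The APLNR+ library stood alone, 19.2-fold (16.9 to 21.9) above BC1 and 31.7-fold (27.3 to 36.9) above CD31+CD34+ cells. A further fall of 3.45-fold (2.5 to 4.86) to CD43+ cells brought the whole range to 109-fold (82.4 to 149). DLL3 is known as a gene of presomitic mesoderm, and the mesoderm markers MESP1 and MIXL1 were at 96.8 and 474 FPKM in the same library. Of the 5 neural markers, which were listed because neural progenitors also use DLL3, none reached 1 FPKM in APLNR+ cells and 2 were at 0. Their sum there was 0.404 FPKM. The part of either cell type in the level of DLL3 was not tested.

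The family was counted step by step beside all genes that reached 1 FPKM. From BC1 to APLNR+ cells, 1 of 9 members rose (DLL3), where 9.15% of 17137 genes rose, and 1 fell (JAG2), where 9.32% fell. From APLNR+ to CD31+CD34+ cells, 4 of 9 rose (NOTCH1, NOTCH4, DLL4 and JAG2) against 13.0% of all genes, and 1 fell (DLL3) against 11.4%. From CD31+CD34+ to CD43+ cells, 6 of 9 fell (NOTCH1, NOTCH3, NOTCH4, DLL3, DLL4 and JAG2) against 13.5% of all genes. None of the 9 rose at that step, against 7.63%. NOTCH2, DLL1 and JAG1 did not move by 1 at any step, although JAG1 reached -1.03 at the last step with the libraries scaled to reference genes. DLL1 could not do so on the deposited values, since a gene below 1 FPKM in every library cannot change by 1 on this scale. It reached -1.08 at the last step with the libraries scaled to equal sums. That scaling divided the libraries by 0.607 to 0.66, which also raised every value against the 1 added before the logarithm.

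All 4 members that rose into CD31+CD34+ cells also fell out of them, a pattern that 4.97% of all genes had. Of the 2229 genes that rose into these cells, 852 also fell out of them. Of the 9 members, 6 were highest in CD31+CD34+ cells (the 4 with NOTCH3 and DLL1), where 25.5% of all genes were. NOTCH3 was there only 1.13-fold (1.09 to 1.16) above BC1. DLL1, which is not among the genes kept, did not differ from BC1 beyond counting error (1.12-fold, 0.736 to 1.69). APLNR+ cells held the highest value of 2 (NOTCH2 and DLL3), BC1 that of 1 (JAG1) and CD43+ cells that of 0, against 22.7%, 27.7% and 24.0% of all genes. The median change of the members was -0.30, 0.72 and -1.81 at the 3 steps, and that of all genes was 0.00, 0.01 and -0.08.

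**Figure D2:**
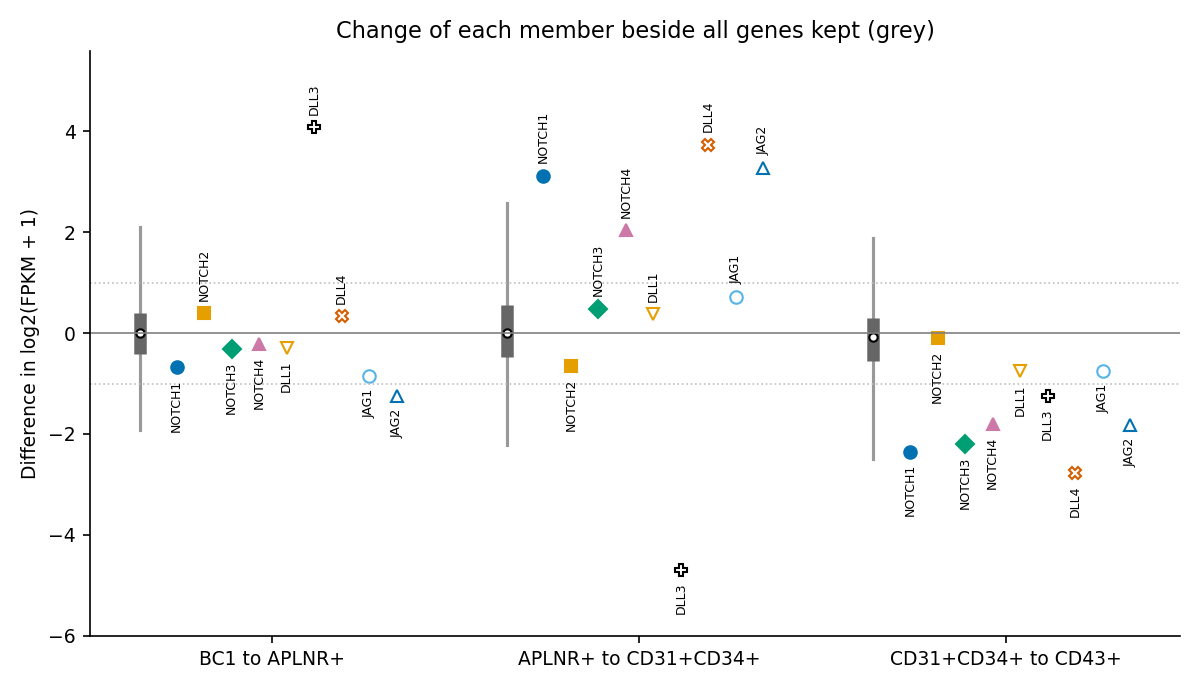
Difference in log2(FPKM + 1) of each of the 9 members at the 3 steps, with receptors as filled and ligands as open symbols. The grey bar and line give the middle 50% and 95% of all 17137 genes with their median as a white point, and dotted lines mark the threshold of 1. DLL3 moves by 4.08 and then -4.70, and all 9 members lie below 0 at the last step, from -0.09 for NOTCH2 to -2.78 for DLL4. The value of NOTCH2 is near the median of all genes at that step (-0.08), and it is 0.0 with the libraries scaled to median ratios.

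From BC1 to CD43+ cells, 1 of 9 rose (DLL4), where 15.2% of all genes rose, and 2 fell (NOTCH3 and DLL3), where 18.9% fell, so the counts lay near the background. With a pseudocount of 0.1, 4 of 9 fell. NOTCH1, NOTCH4 and JAG2, which had moved by up to 3.28 at a step, ended within 0.21 of their start on the log2 scale. The direction of these small net differences turned when the libraries were scaled to reference genes. The 12 reference genes were not all steady, since B2M went from 93.9 FPKM in BC1 to 799 FPKM in CD43+ cells. ACTB went from 1032 FPKM in CD31+CD34+ to 3021 FPKM in CD43+ cells.

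The make-up of the family was compared next, since FPKM is per length and allows levels of genes to be added. The 4 receptors summed to 66.2 FPKM in BC1 cells, 52.3 in APLNR+ cells, 178 in CD31+CD34+ cells and 37.9 in CD43+ cells. NOTCH3 made up 55% of the sum in BC1 and 55.6% in APLNR+ cells. NOTCH1 made up 71.9% in CD31+CD34+ and 64.3% in CD43+ cells, from 26.4% in APLNR+ cells. The leading receptor thus changed from NOTCH3 to NOTCH1 between day 2 and day 5. NOTCH4 did not exceed 1.92% of the sum.

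The 4 activating ligands summed to 13.0 FPKM in BC1 cells, 5.75 in APLNR+ cells, 50.8 in CD31+CD34+ cells and 11.6 in CD43+ cells. JAG1 led in BC1 and APLNR+ cells, with 49.7% and 54.1% of the sum. JAG2 led in CD31+CD34+ and CD43+ cells, with 51.6% and 58.1%, and DLL4 followed in CD31+CD34+ cells with 35.4%. With DLL3 added, DLL3 was 96% of all ligand FPKM in APLNR+ cells and 7.86% in CD31+CD34+ cells.

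**Figure D3:**
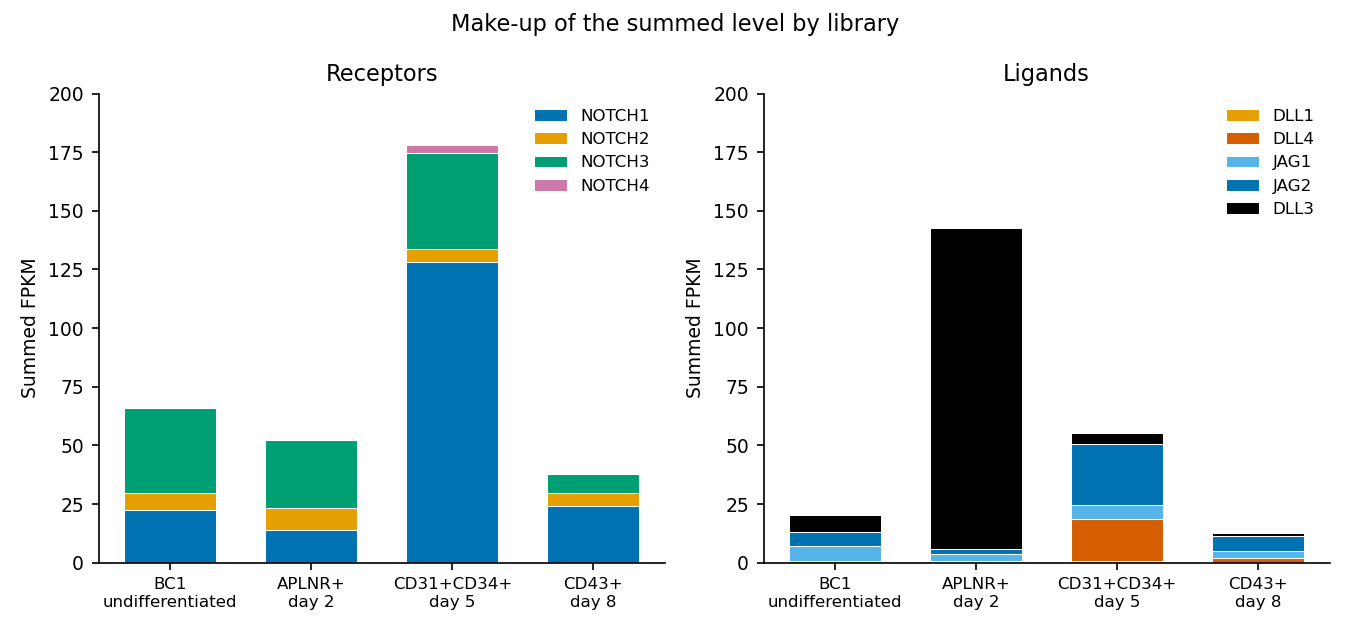
Summed FPKM of the 4 receptors (left) and the 5 ligands (right) in each library, with bars stacked by gene and starting at 0. NOTCH1 fills 71.9% of the receptor bar of CD31+CD34+ cells, and DLL3 fills 96% of the ligand bar of APLNR+ cells.

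Genes whose profiles over the 4 libraries were closest to a member were taken from 8932 protein-coding genes that reached 10 FPKM. Likeness was the root mean squared difference of log2(FPKM + 1) after each gene was centered on its mean, over 4 libraries that all genes share. DLL4 was closest to AFAP1L1 (0.01), ITGA10 (0.11) and TMEM204 (0.13). NOTCH1 was closest to AKR1C3 (0.17), FLT1 (0.18), a receptor of VEGF, and CPNE2 (0.18), and JAG2 to RFTN1 (0.13), SNCG (0.15) and NAV1 (0.24). FLT1 was at 21.7, 9.65, 100.3 and 16.9 FPKM in the order of differentiation. NOTCH3 was closest to INAVA (0.08), KCTD17 (0.09) and APP (0.10). DLL3 was closest to TENM4 (0.09), FST (0.26), the activin antagonist follistatin, and CA12 (0.30). FST was at 3.47, 44.8, 1.19 and 0.0207 FPKM. With a pseudocount of 0.1, none of the 3 genes named for DLL3 remained among its closest 3. For DLL4, 1 of 3 did (TMEM204), so AFAP1L1, the closest at 0.01, did not.

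Fringe proteins lengthen the sugars on Notch, and lunatic and manic fringe are known to tilt its response from Jagged toward Delta ligands. LFNG (lunatic fringe) was at 18.9 FPKM in BC1 cells, 1.72 in APLNR+ cells, 31.8 in CD31+CD34+ cells and 1.86 in CD43+ cells, so it was high and low in turn. MFNG (manic fringe) went from 0.363 to 57.7 FPKM at the second step, a 159-fold rise (96 to 296), and was at 32.7 FPKM in CD43+ cells. RFNG (radical fringe) lay between 19.7 and 30.0 FPKM throughout. Of the 5 genes of this list, 0 rose and 2 fell at the first step, 2 rose and 0 fell at the second, and 0 rose and 1 fell at the third. The shares of all genes that rose and fell were 9.15% and 9.32% at the first step, 13.0% and 11.4% at the second, and 7.63% and 13.5% at the third, and they serve for each list described here. With reference gene scaling, 2 of the list fell at the third step.

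The genes that cut the receptors were present in all 4 libraries. Of these 9, 1 rose and 2 fell from BC1 to APLNR+ cells, 1 rose at the second step, and 1 fell at the third. FURIN, which makes the first cut in the secretory pathway, accounted for every change past the threshold except the falls of APH1B and PSEN2 at the first step. It was at 18.7, 48.7, 183 and 79.6 FPKM. ADAM10, which makes the cut that follows ligand binding, rose from 73.1 FPKM in BC1 to 226 FPKM in CD43+ cells, with a last change of 0.99 that fell short of the threshold. NCSTN and APH1A, subunits of the gamma-secretase that frees the intracellular part, lay between 40.3 and 64.5 FPKM.

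In cells that send the signal, ligands are ubiquitinated and taken up by endocytosis. Of the 6 genes listed for this, 5 reached 1 FPKM, and the ubiquitin ligase NEURL1B alone passed the threshold. It went from 1.93 to 12.4 FPKM into CD31+CD34+ cells and to 1.54 FPKM in CD43+ cells, 6.43-fold up (5.63 to 7.35) and 8.06-fold down (6.98 to 9.37). With the libraries scaled to reference genes, 4 of the list fell at the last step. MIB1, the ligase of most vertebrate ligands, lay between 9.55 and 13.1 FPKM.

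Of 10 genes of the nuclear complex, RBPJ fell at the first step, from 59.6 to 27.9 FPKM, and stayed at 27.0 and 28.1 FPKM. MAML2 and KAT2B rose at the second step, and MAML2 fell at the third, all below 4 FPKM. The co-activator MAML3 went from 1.80 to 11.2 FPKM over the 4 libraries without a step of 1 on the log2(FPKM + 1) scale. With a pseudocount of 0.1, 2 genes of the list rose at the first step in place of 0, and 2 fell in place of 1. A second gene passed the threshold downward at the first step when libraries were scaled to median ratios or to reference genes. Median changes of this list were 0.18, 0.15 and 0.07.

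Of 9 genes of receptor turnover and inhibition, 5 fell from CD31+CD34+ to CD43+ cells (NUMBL, DTX1, DTX3, DTX4 and NRARP) and 0 rose, against 13.5% and 7.63% of all genes, with a median of -1.05. The falling genes numbered 4 with the libraries scaled to median ratios, 6 with a pseudocount of 0.1 and 7 with scaling to reference genes. NRARP, a feedback inhibitor that Notch itself induces, was at 18.5 FPKM in BC1 cells, 6.64 in APLNR+ cells, 19.2 in CD31+CD34+ cells and 8.78 in CD43+ cells. Its libraries were ordered high, low, high, low, as those of LFNG and JAG1 were. The order was not particular to these genes, since NOTCH3, DLL1, MAML2 and NEURL1B, among others, had it too. DTX4 fell from 5.20 to 0.532 FPKM, and NUMB, which directs receptors to degradation, rose from 44.9 to 109 FPKM at the second step.

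The target transcription factors did not share a course. HEY1 and HEY2 peaked in CD31+CD34+ cells, at 6.70 and 13.5 FPKM, and fell to 0.566 and 2.32 FPKM, while HES1 was at 4.81, 21.2, 25.6 and 32.2 FPKM and HES4 at 3.71, 6.26, 45.0 and 153 FPKM.

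**Figure D4:**
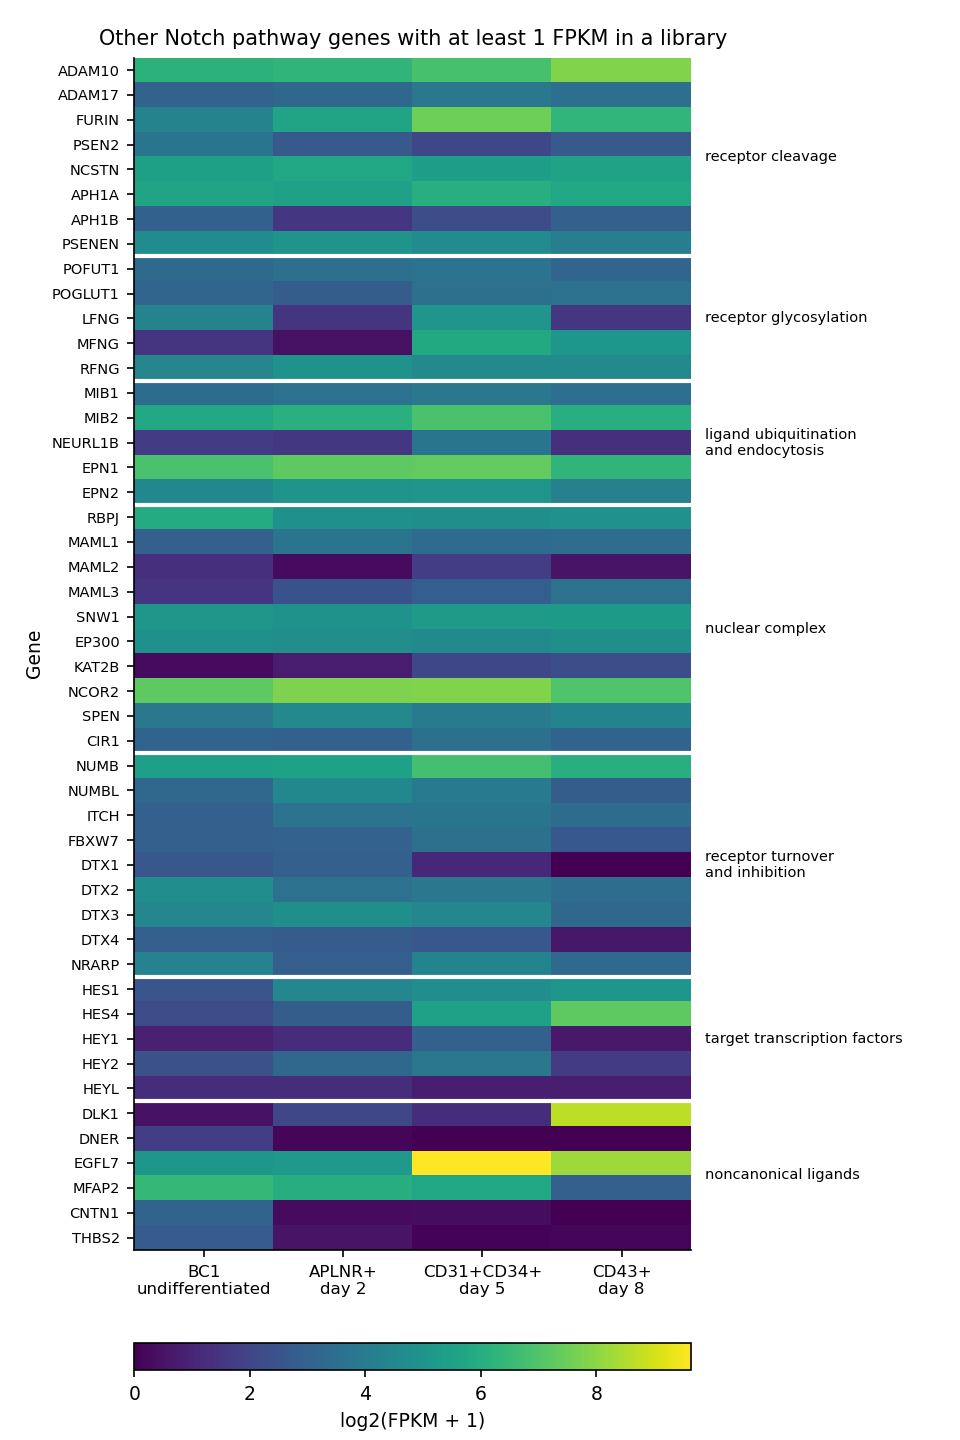
Heat map of log2(FPKM + 1) of 48 other Notch pathway genes that reached 1 FPKM in a library, with genes in rows grouped by role and the 4 libraries in columns. LFNG, MFNG and NEURL1B brighten in CD31+CD34+ cells, at 31.8, 57.7 and 12.4 FPKM, RBPJ is at 27.0 to 28.1 FPKM from APLNR+ cells on, and DLK1 is brightest in CD43+ cells.

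Of the 9 genes listed as noncanonical ligands, 6 reached 1 FPKM. DLK1, a Delta-like protein without the receptor-binding domain of the Delta and Jagged ligands, went from 1.38 to 415 FPKM at the last step, a 301-fold difference (256 to 358). EGFL7, secreted by endothelial cells, was at 33.7, 36.1, 800.1 and 302 FPKM. CNTN1, THBS2 and DNER fell at the first step. MFAP2 fell from 53.1 to 6.72 FPKM at the last. The list thus had 1 rise and 3 falls, 1 rise and 0 falls, and 1 rise and 2 falls at the 3 steps. With a pseudocount of 0.1, 3 fell at the second step and 3 at the last.

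Arterial and venous genes were set beside DLL4 and NOTCH1, since Notch is known for the arterial fate. Of 9 arterial genes, 7 reached 1 FPKM, of which 3 rose from APLNR+ to CD31+CD34+ cells (GJA4, GJA5 and NRP1) and 4 fell from CD31+CD34+ to CD43+ cells, where 13.0% and 13.5% of all genes did. GJA4 rose again at the last step, from 49.4 to 151 FPKM (3.07-fold, 2.89 to 3.25). NRP1 passed the threshold narrowly, by 1.02, and 2 of the list rose at the second step with the libraries scaled to median ratios or to reference genes. GJA5, an arterial gap junction gene, went from 0.590 to 51.2 FPKM at the second step. CXCR4 did not exceed 0.820 FPKM in any library, and EFNB2, the classic arterial ephrin, was at 4.42, 6.82, 8.84 and 5.12 FPKM. All 5 venous genes rose at the second step, against 13.0% of all genes, and fell at the third, against 13.5%, led by FLT4, which went from 4.91 to 193 and to 6.36 FPKM. NR2F2, the venous regulator known to restrain Notch genes, went from 0.211 to 23.4 and to 1.34 FPKM. The CD31+CD34+ library thus held arterial and venous genes side by side, and whether the same cells carried both cannot be read from a bulk library.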

How the data were processed

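Gene expression was measured by RNA sequencing in 4 populations, with 1 library each. The authors deposited a table of FPKM values. The submitters' processing notes name hg19, BWA, Bowtie and RSEM without their roles, whereas the identifiers and loci of the table lie on GRCh38. Positions are those of the table, counted from 1. The program behind the FPKM values is not given in the sources used here, and the unit rests on the label of a plot in the study and on the range of the values. Rows of 1 gene identifier were summed, which merged rows for 90 of 58274 identifiers and for no member.

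Values were analyzed as log2(FPKM + 1) with Python 3.11.15, numpy 2.4.6, pandas 2.3.3 and scipy 1.17.1. A gene was kept with at least 1 FPKM in a library (17137 genes) and was called at a change of at least 1. Depth was fitted, in genes with 1 transcript of at least 1000 bases in GENCODE 29, as the number of mapped fragments, with a constant taken off each transcript length, that makes low values whole fragments. Between 91.9% and 94.2% of low values fell within 0.1 of a whole number. Fragments of each gene were computed from its longest principal protein-coding transcript, and at most 3 fragments were treated as a floor. The fit, the calls and the intervals were tested on simulated data.

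All 9 members are named. The values of 1 gene of the receptor cleavage list are not reported here. From each pathway list, genes were named for the largest change at a step with at least 5 FPKM, and further genes of these lists were named after their values were seen. The members and lists were chosen with earlier results of these data known, and no list is independent evidence. Alternatives were other pseudocounts, thresholds, filters and scalings of the libraries.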

Additional observations from a re-analysis of the deposited data

How the results depend on the processing

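With 1 library per population, no replicate could be left out, and the spread between cultures is unknown. No paired analysis was possible because no population has a second library. The number of members highest in each library was the same under the scalings to equal sums, to the median ratio and to reference genes. Equal sums and reference genes each gave 7 in place of 6 falling from CD31+CD34+ to CD43+ cells, and 3 in place of 2 falling from BC1 to CD43+ cells. The scaling to equal sums, with divisors of 0.607 to 0.66, also raised every value against the pseudocount of 1, so its counts do not reflect library sums alone. A pseudocount of 0.1 or 0.01 gave 2 members rising from BC1 to APLNR+ cells in place of 1, and 4 falling from BC1 to CD43+ cells in place of 2. The falling members from BC1 to APLNR+ cells numbered 2 with a pseudocount of 0.1, 3 with 0.01 and 3 with a threshold of 0.58, in place of 1. A threshold of 2 gave 0 falling from BC1 to APLNR+ cells, 3 in place of 6 falling from CD31+CD34+ to CD43+ cells, and 0 rising and 1 falling from BC1 to CD43+ cells. A threshold of 0.58 gave 2 falling from APLNR+ to CD31+CD34+ cells and 4 falling from BC1 to CD43+ cells. The lower the pseudocount, the more the low genes count, by its construction. No member past the threshold changed direction under any of these settings. Scaling to reference genes moved the median change of all genes from CD31+CD34+ to CD43+ cells from -0.079 to -0.343, and the other scalings gave -0.186 (equal sums) and -0.004 (median ratio). It turned the net difference from BC1 to CD43+ cells for NOTCH1 (0.10 to -0.30), NOTCH4 (0.02 to -0.06) and JAG2 (0.21 to -0.15). Of the counts over the pathway lists, 8 moved by over 1.5 times with a pseudocount of 0.1, 4 with reference genes and 2 with the median ratio. Alternatives for the pathway lists, for the transcript length and for the closest genes were added after the data were seen.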
